A study of Drosophila melanogaster with 2 samples.

Results

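Unidirectional promoter summits are places where a fusion of the zinc finger protein Dati with enhanced green fluorescent protein (eGFP) gave its highest signal near the start of genes that are read in a single direction. A summit of the set thresholded over both replicates, called optimal here, was a member when protein-coding transcript start sites of a single strand lay within 500 bp of it. There were 560 members among the 1892 optimal summits on the long arms 2L, 2R, 3L, 3R and X and on chromosome 4, or 29.6% (exact binomial 95% interval 27.5 to 31.7), out of 1915 in the whole set. Another 250 summits had starts of both strands within 500 bp and are called bidirectional, and 1082 had no such start. The data were chromatin immunoprecipitation and sequencing of whole Drosophila melanogaster embryos aged 8 to 24 hours, of the strain dati-GFP, whose transgene makes the fusion protein. Chromatin was sonicated, with 200 to 800 as the size range on the label, and an anti-GFP antibody was used to pull down the fusion. Both biological replicates formed the 1 group, with no untransformed or second condition, and they shared 1 control alignment. The lists hold peaks and no read counts, so the depth is unknown and every interval covers counting error only.

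In flies, as in other animals, a promoter is the stretch around a transcription start site where general factors and RNA polymerase II assemble. Many fly genes stand head to head with a neighbour and share the sequence between their starts, while others have a start with no opposite gene close by. Fly promoters also carry recurrent short sequences. Housekeeping genes often hold the DNA replication-related element (DRE) and the elements called Motif 1, Motif 6 and Motif 7, whereas many developmentally regulated genes hold GA repeats, to which the GAGA factor encoded by Trl binds.

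The sequences under the strongest summits and in front of their starts show what the members look like at the base level. The first group gives the 61 bases centred on the summit at the 5 members of highest signal that lie on 2L, 3L, 3R or X, upstream of their start, in a window free of annotated exons. They are written along the strand of the nearest gene on build dm6, from the Release 6 assembly, with the summit base in capitals.
CG14100, chr3L:19590584-19590644 (minus strand): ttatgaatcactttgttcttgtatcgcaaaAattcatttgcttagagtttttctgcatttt
Ugalt, chrX:2703860-2703920 (minus strand): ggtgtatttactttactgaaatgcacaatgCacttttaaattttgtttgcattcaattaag
ph-p, chrX:2137310-2137370 (minus strand): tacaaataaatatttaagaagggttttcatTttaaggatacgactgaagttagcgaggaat
CG18549, chr3R:12449142-12449202 (plus strand): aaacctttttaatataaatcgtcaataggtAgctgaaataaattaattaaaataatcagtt
Rtnl1, chr2L:4997638-4997698 (minus strand): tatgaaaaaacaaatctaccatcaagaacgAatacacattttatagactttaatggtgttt
These windows are rich in A and T, with a GC content between 19.7% and 29.5%, and none has a GA repeat. The second group gives the 150 bases just upstream of the start at 2 members of high signal, under the same conditions, whose 150 bases hold a GAGA element, GAGAGAG on either strand, here in capitals.
Btk, chr2L:8277703-8277852 (minus strand): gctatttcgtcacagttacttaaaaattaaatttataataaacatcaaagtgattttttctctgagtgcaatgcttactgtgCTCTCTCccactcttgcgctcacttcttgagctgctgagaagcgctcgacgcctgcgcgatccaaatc
Hmt4-20, chrX:654939-655088 (minus strand): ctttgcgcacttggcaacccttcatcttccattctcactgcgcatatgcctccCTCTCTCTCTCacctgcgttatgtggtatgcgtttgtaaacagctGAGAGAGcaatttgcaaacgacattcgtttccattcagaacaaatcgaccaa
The element began 68 bp before the start at Btk (a tyrosine kinase gene), and 4 overlapping or separate matches lay from 97 to 52 bp before it at Hmt4-20 (a histone H4 lysine methyltransferase gene). The summits of these members lay farther out, 168 and 219 bp upstream. The last group gives the same 150 bases at 2 members, those of highest signal that met the same conditions on arm and exons and hold the DRE, TATCGATA on either strand, in capitals.
eEF1gamma, chr3R:29220022-29220171 (plus strand): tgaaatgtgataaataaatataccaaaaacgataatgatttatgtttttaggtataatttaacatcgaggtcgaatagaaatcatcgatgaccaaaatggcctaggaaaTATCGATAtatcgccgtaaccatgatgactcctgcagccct
Nsun5, chr3R:19162301-19162450 (minus strand): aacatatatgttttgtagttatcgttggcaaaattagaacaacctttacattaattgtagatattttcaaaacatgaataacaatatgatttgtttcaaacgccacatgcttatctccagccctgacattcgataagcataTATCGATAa
The DRE began 41 bp before the start of eEF1gamma, a translation elongation factor gene, whose summit was at 15 bp upstream, and 9 bp before that of Nsun5, an RNA methyltransferase gene, whose summit was at 102 bp upstream.

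Unidirectional summits lay mostly upstream of the start, at a typical distance well over the width of a core promoter. Of the 557 members not exactly at a start, 442 lay upstream of the nearest one (79.4%, 75.8 to 82.6), against 57.2% of all optimal summits, most of which are not near a start. The median position was -140.5 bp, with quartiles at -244 and -27.25. The stretch from 200 bp upstream of the start to just over 100 bp upstream held the most members, 165 or 29.5%, followed by the nearest 100 bp upstream with 18.0% and the next 100 bp outward with 89 members. The 165 members also had the highest median pooled signal, 93.9, and 71 of them (43.0%) overlapped peaks of both replicates' own sets, while the share in both own sets was highest, at 46.1%, in the next 100 bp outward. In replicate 2 the median signal of the 165 was 41.2, and it was highest, at 42.3, in the outermost 100 bp upstream. The 41 members from the start to 99 bp downstream had a median signal of 62.7, with 8 (19.5%) in both own sets. The summits lay in intergenic sequence at 233 members, in introns at 191, in 5' untranslated regions at 91, in coding exons at 22, in 3' untranslated regions at 12 and in other exons at 11.

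**Figure D1:**
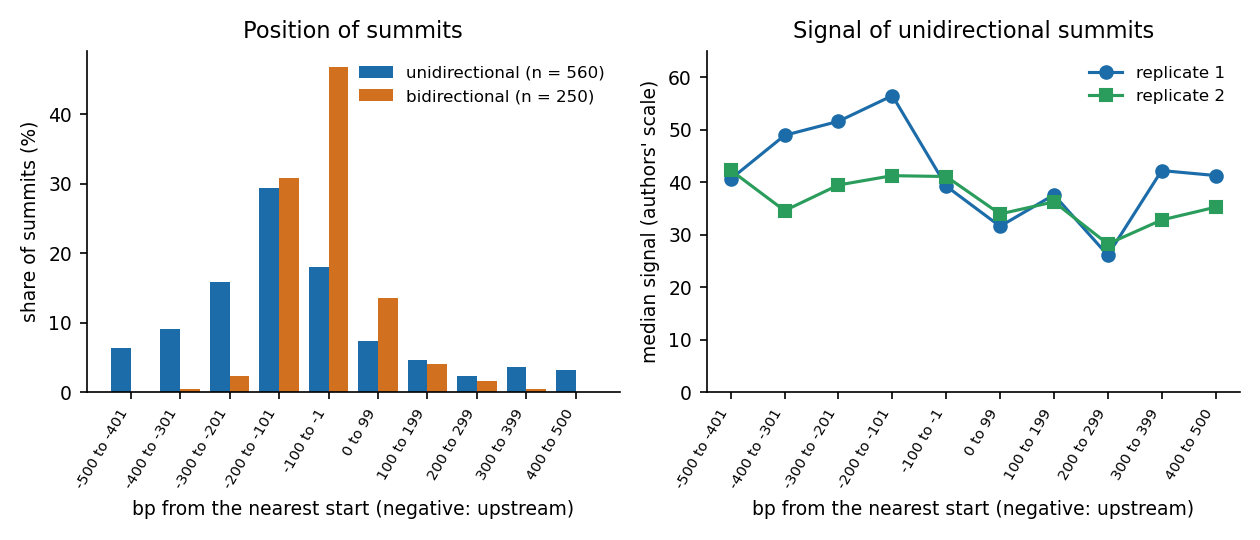
Left, share of summits (y axis, %) by distance from the nearest protein-coding start (x axis, bp), for 560 unidirectional and 250 bidirectional summits; right, median of the authors' signal (y axis) of the unidirectional summits over the same distances in each replicate. Unidirectional summits were most frequent 100 to 200 bp upstream (29.5%), where replicate 1 had its highest median signal (56.4, while replicate 2 had its highest, 42.3, in the outermost upstream step), and bidirectional ones in the nearest 100 bp upstream (46.8%). The start nearest to a bidirectional summit could be of either strand, so its shorter distance follows in part from the class rule.

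Members lay nearest to first and to later starts of their genes. The nearest start was the first (most upstream) start of its gene at 354 members and a later one at 206. A later start was any other annotated start, however close to the first. The share of later starts among all starts was not counted. Summits at later starts lay in introns in 149 cases (72.3%), against 42 (11.9%) at first starts. A summit upstream of the later start nearest to it lies inside the gene, so this contrast follows in part from the classes. Intergenic summits numbered 0 at later starts and 233 at first starts. The median signal was 78.7 at first starts and 80.9 at later ones, and 36.2% and 35.4% overlapped both own sets. The members had 529 distinct nearest genes, and 25 genes had more than 1 summit. Rtnl1, a reticulon gene whose product shapes the endoplasmic reticulum (FBgn0053113, 2L 4992808 to 5009720, minus strand), had summits at 4 of its 7 starts. Their signals were 427.7, 136.2, 77.2 and 47.6, all upstream of their starts, by 287, 240, 298 and 188 bp. The strongest had 205.4 in replicate 1 and 220.1 in replicate 2, and the weakest 28.5 and 24.0. Ptpmeg2, a protein tyrosine phosphatase gene (X 9626294 to 9659145, minus strand), had summits at 3 of its 6 starts, 193, 178 and 178 bp upstream, with signals of 137.9, 207.5 and 196.7. The Polycomb group gene ph-p had 2 summits between a pair of its starts. The one 485 bp upstream of the nearer of these starts had a signal of 666.4 (332.9 and 333.9 in replicates 1 and 2), and the one 498 bp downstream of the other start had 222.8 (110.3 and 118.2).

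The signals of the members ran from 3.11 to 936.2, with a median of 79.5 and quartiles of 63.2 and 120.1. The signal is the authors' own value, and its scale is not stated. CG14100 (3L 19590507 to 19590713) was highest, with 510.6 in replicate 1 and 434.9 in replicate 2. Ugalt, a UDP-galactose transporter gene, followed with 513.0 and 410.6. Both were above every other member in each replicate. The members at px (plexus, which acts in wing vein patterning) had 319.5 and 303.8, at mRpL41 (a mitochondrial ribosomal protein gene) 332.2 and 285.3, and at eIF6 (an initiation factor of the large ribosomal subunit) 338.2 and 201.3. These and ph-p were the next 4 in the pooled signal, and replicate 2 was lower than replicate 1 at each of them except ph-p. The other members among the highest 20 had signals from 316.8 to 528.3. They were CG18549, PNPase (polynucleotide phosphorylase), CG1888, Rtnl1, gish, Fkbp14 (a prolyl isomerase), GstE13 (a glutathione S-transferase), Sesn (sestrin), CG13921, MFS10, RluA-1, TRAM, Tina-1 and Sox14, an ecdysone-responsive transcription factor gene. All 20 overlapped peaks in both replicates' own sets, and 19 lay upstream of the start. GstE13 was the exception, with its summit 66 bp downstream.

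Strong members were found in both replicates' own sets far more often than weak ones. Of the 560 members, 543 had an overlapping place in both replicates' ranked lists, where the median signal was 44.2 in replicate 1 and 38.5 in replicate 2 over the places each list held. Divided by that of replicate 1, the signal of replicate 2 was 0.880 at the median, with quartiles of 0.668 and 1.12, and the ratio was above 1 at 188 members. The SD of its log2 was 0.61. Across the 543 places Pearson's r was 0.916 and Spearman's rho 0.604, as a description only, because the places were chosen on the pooled reads of both replicates and share 1 control. Of the 140 members of highest signal, 132 overlapped peaks of both own sets. The number was 63 in the next 140, then 4 and 2. The pooled signal and the own sets come from the same reads, so this fall follows in part from the measures. The median GC content of the summit and 50 bp to each side of it went with the order of signal. It ran from 31.2% in the highest 140 to 41.6% in the lowest 140, and its part in these counts was not tested. Across all members 35.9% overlapped both own sets, the same as the share of all optimal peaks (35.9%), while 137 overlapped that of replicate 1 alone, 50 that of replicate 2 alone and 172 neither.

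Among the members in the 200 highest ranks with a place in both ranked lists, the rank share differed most at Cftr, sky, CG17075, CG4586 and RpL8. Members absent from 1 list were left out of this ranking. Among them were CG7841 (87.5 in replicate 1) and CG42394 (85.1 in replicate 1), which had no overlapping place in replicate 2's ranked list. Cftr, a chloride channel gene, had 72.1 in replicate 1 and 28.2 in replicate 2, and sky, which encodes a GTPase-activating protein of synaptic vesicles, had 86.7 and 29.0. CG17075 had 100.4 and 29.6, and CG4586 had 100.7 and 31.3. RpL8, a ribosomal protein gene, was the only one of the 5 that was higher in replicate 2, with 34.5 and 73.6. These single places have no test with 2 libraries. At the lower end, 8 members had a signal under 20, the highest of them 16.3, while the lowest of the others had 23.2. All 8 overlapped another optimal peak, so the replicate values beside them belong in part to that neighbour: the summit 263 bp upstream of JIL-1, a histone H3 kinase gene, had a signal of 3.1, and its neighbour 52 bp upstream had 75.8. The remaining lowest values were 4.5 at CG31886, 4.3 at stv (starvin, a co-chaperone gene), 3.2 at Sxl, the sex determination switch gene, and 3.1 at Lip4, a lipase gene.

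**Figure D2:**
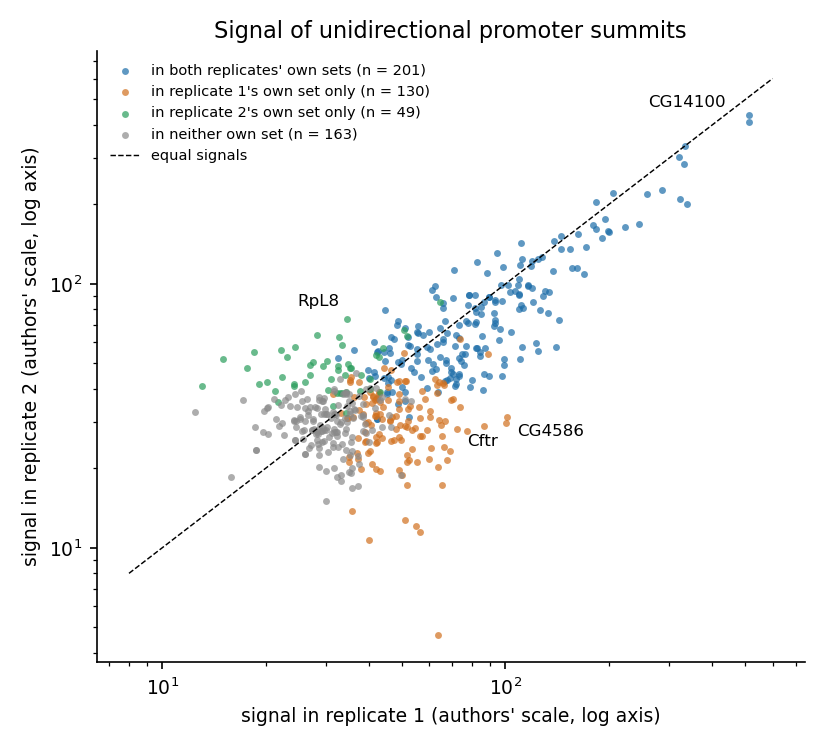
Signal of each unidirectional summit in replicate 1 (x axis) and replicate 2 (y axis), on the authors' scale with log axes, for the 543 summits with a place in both ranked lists; colours mark membership of the replicates' own thresholded sets and the dashed line marks equal signals. Points of high signal lie near the line, while RpL8 (34.5 and 73.6) and CG4586 (100.7 and 31.3) lie far from it on opposite sides.

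The next comparison set unidirectional summits against bidirectional ones, which asks whether a promoter read in both directions differs from one read in a single direction. Sequence within 500 bp of starts of a single strand had fewer optimal summits for its length. It held 560 summits in 13.66 Mb, or 41.0 per Mb, and sequence within 500 bp of starts of both strands held 250 in 1.675 Mb, or 149.3 per Mb. The ratio was 0.275 (0.236 to 0.320; exact conditional binomial test, two-sided, Benjamini-Hochberg adjusted p over 5 tests = 1.49e-52). Sequence near both starts is by its nature close to promoters, so the stretches from 1 to 200 bp upstream of a start were also compared, a choice made after seeing the data. There the densities were 100.6 and 304.3 per Mb, a ratio of 0.331 (0.277 to 0.396; same exact test, unadjusted p = 1.14e-32). The density of the members was 44.3 per Mb of such sequence on 2L, 39.1 on 2R, 41.1 on 3L, 36.4 on 3R and 47.6 on X, and 9.30 on chromosome 4, which had 1 member.

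The pooled ranked list, which holds weak places as well, did not show this gap. It had 1269 places per Mb near starts of a single strand, 1278 near starts of both and 1135 elsewhere. For every 100 ranked places there were 3.23, 11.7 and 0.804 optimal summits, against 1.23 over all 154044 places. The promoter classes thus differed in optimal summits per ranked place, while ranked places per Mb were alike. These are ratios of separate counts, made without matching single ranked places to optimal summits.

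**Figure D3:**
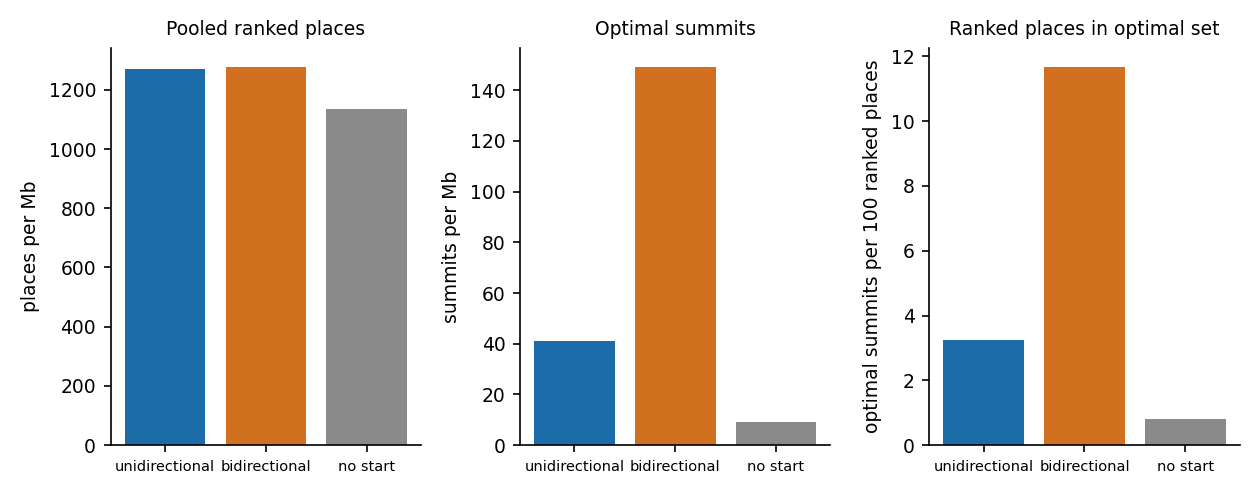
Places of the pooled ranked list per Mb (left), optimal summits per Mb (middle) and optimal summits per 100 ranked places (right) for sequence within 500 bp of starts of a single strand, of both strands, and elsewhere. The ranked places are alike near both kinds of start (1269 and 1278 per Mb), while the optimal summits are not (41.0 and 149.3 per Mb).

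Unidirectional summits were also weaker and less often found again than bidirectional ones. Their signal was above the median of all optimal peaks, a line that splits the set at 50%, in 51.8% of cases against 65.6% of bidirectional summits (odds ratio 0.563, 0.408 to 0.775; Fisher's exact test, adjusted p = 0.000512). The median signal was 79.5 against 100.5, with 44.2 against 53.5 in replicate 1 and 38.5 against 47.4 in replicate 2. A peak of the conservative set, thresholded on the paired replicates, overlapped 81.4% of them against 89.6% (79.6% of all optimal peaks; odds ratio 0.509, 0.309 to 0.816; Fisher's exact test, adjusted p = 0.00447). Both own sets held 35.9% of them against 50% (odds ratio 0.560, 0.409 to 0.766; Fisher's exact test, adjusted p = 0.000481). None of these 3 differences passed among the peaks of the optimal set above its median signal (odds ratios 0.957, with the median taken again within those peaks, 0.704 and 0.673) or in replicate 2's own set (0.953, 0.753 and 0.861), and in replicate 1's own set the conservative share missed the threshold (0.544, adjusted Fisher p = 0.0536). The share upstream of the nearest start was 79.4% against 80.7%, with an odds ratio of 0.918 and an interval from 0.616 to 1.35 (Fisher's exact test, adjusted p = 0.705). The summits with no start were below the unidirectional ones in the other 3 shares, without a test. Of them, 45.5% were above the median signal, 76.3% overlapped the conservative set and 32.7% both own sets.

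The line between the classes fell at 500 bp. The unidirectional summits at app, ear and CG14968 had their nearest opposite start at 501, 502 and 506 bp, with signals of 72.3, 57.2 and 170.8. The bidirectional summits at Prosalpha3, RpL31 and beta4GalNAcTB had theirs at 491, 493 and 495 bp, with signals of 75.7, 81.0 and 60.1. Few members were near that line: 74 had an opposite start within 1000 bp, 486 had none within 1000 bp and 259 none within 5000 bp.

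Promoter sequence separated the classes in front of the start but not under the summit. In the summit and 50 bp to each side of it none of 14 motifs and none of all possible 6-mers (each merged with its reverse complement) differed between unidirectional and bidirectional summits, a share of 0 in either direction (Fisher's exact tests, Benjamini-Hochberg adjusted over each family; 0 motifs and 126 6-mers at an unadjusted p under 0.05). In the 100 bp upstream of the nearest start 1 motif was more frequent at unidirectional summits (7.14% of those tested) and 4 were less frequent (28.6%), and of the 6-mers 21 (1.01%) were more and 24 (1.15%) less frequent. The more frequent motif was GAGA, present upstream of the start at 48 of 560 unidirectional summits (8.57%) and 2 of 250 bidirectional ones (0.800%; odds ratio 11.6, Fisher's exact test, adjusted p = 2.97e-05). The 6-mer GAGAGA was at 85 (15.2%) against 4 (1.60%; odds ratio 11.0, Fisher's exact test over all 6-mers, adjusted p = 2.81e-07). The less frequent motifs were the DRE (3.21% against 8.80%, adjusted Fisher p = 0.00455), its core CGATA (21.2% against 36.4%, adjusted Fisher p = 6.15e-05), Motif 7 (CANCNCTA; 42 summits, or 7.5%, against 40, or 16.0%, adjusted Fisher p = 0.00171) and runs of 8 A (3.93% against 24 of 250, adjusted Fisher p = 0.00736). The core lies within the DRE, so these counts overlap. The 100 bp upstream of the start held 46.8% of bidirectional summits and 18.0% of unidirectional ones. Within 50 bp of the summit GAGA was rare, in 0.893% of unidirectional and 0.4% of bidirectional windows. The part of summit position in the GAGA difference upstream of the start was not tested.

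Windows of 300 bp to each side of the summit were added after seeing the data. GAGA was in 135 unidirectional windows (24.1%) and 13 bidirectional ones (13 of 250; odds ratio 5.79, Fisher's exact test, adjusted p = 5.32e-11), and in 17.6% of the windows at the 1082 summits with no start. A CA repeat (CACACACA) was in 17.7% against 6.40%, and in 21.6% at the summits with no start, above the unidirectional share. GAGA and the CA repeat were the 2 motifs more frequent at unidirectional than at bidirectional summits (14.3% of those tested). The 6 less frequent ones (42.9%) were the DRE (6.25% against 20.4%), its core (59.6% against 73.2%), Motif 1 (27 of 560 against 30 of 250), Motif 7 (21.6% against 42.8%), the E-box CAGCTG (28.8% against 49.6%) and TATAAA (58.6% against 67.6%). Each of these 6 was less frequent still at the summits with no start, with the DRE in 0.462%, Motif 7 in 13.7% and CAGCTG in 24.8%. Runs of 8 A did not pass in these windows and had the opposite sign (32.1% against 29.2%, adjusted Fisher p = 0.445). A bidirectional window of this size can hold 2 core promoters and a unidirectional one holds those of a single strand, and the part of this in the lower shares was not tested. Promoters with starts of both strands and no summit were not counted. In both kinds of window, a difference particular to summits therefore cannot be told apart from one between the promoter classes at large. The GAGA difference was also past the threshold in replicate 1's own set (30.3% against 5.59%) and in replicate 2's (32.4% against 4.52%; unadjusted Fisher's exact test p = 2.45e-12 and 1.06e-12). The general E-box CANNTG, Motif 6 (GTATNTT), the initiator letters TCAGT, the GATA motif TGATAAG and the Zelda motif CAGGTAG did not pass in either window.

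**Figure D4:**
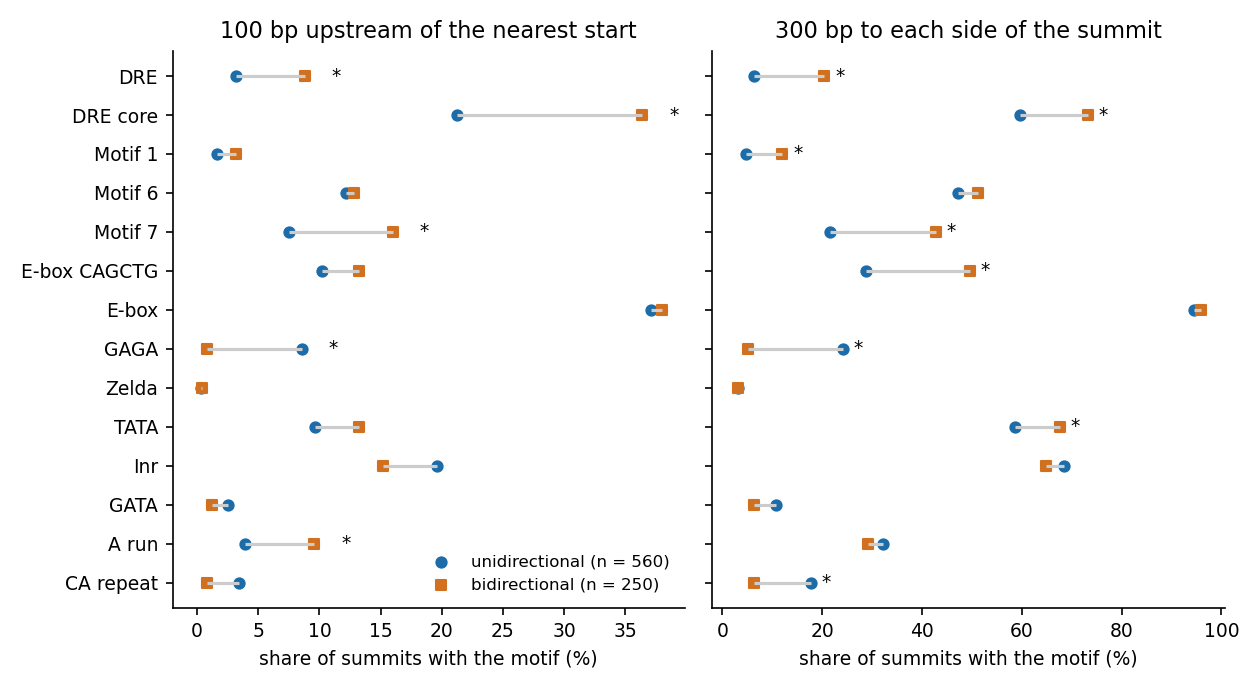
Share of summits (x axis, %) whose window holds each of 14 motifs (y axis), in the 100 bp upstream of the nearest start (left) and in 300 bp to each side of the summit (right), for 560 unidirectional and 250 bidirectional summits; an asterisk marks an adjusted p under 0.05 in Fisher's exact test. GAGA is more frequent at unidirectional summits in both panels (8.57% against 0.800% and 24.1% against 13 of 250), and the DRE less frequent.

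The GAGA elements flanked the summits and were rare under them. Counted in steps of 50 bp along the strand of the nearest gene, 20 members had a GAGA element that began between 150 and 100 bp before the summit, 10 in the next step, 1 in the last 50 bp before the summit, 5 from the summit to 49 bp after it, and 22 in each of the next 2 steps. The same dip was seen at the 1082 summits with no start, where the counts in the first 4 of these steps were 38, 13, 4 and 7. In the summit and 50 bp to each side GAGA was in 0.893% of the members. It was in 2.5% and 2.14% of windows of that length centred 500 bp before and after the members' summits. Among the 10078 promoters with starts of a single strand it was in 4.13%, in the window from 150 to 50 bp before the start. That promoter window covers the steps where GAGA was most frequent at promoters. GC content was low at the summit too: its mean along the members was 38.9% at 500 bp before the summit, 36.0% at the summit and 46.9% at 300 bp after it. The 135 members with GAGA within 300 bp of the summit had a median signal of 100.4 (61.3 in replicate 1 and 46.1 in replicate 2), and the other 425 had 76.3 (41.4 and 36.9). Both own sets held 51.9% of the former and 30.8% of the latter, and the nearest opposite start lay at a median of 7241 bp and 3956 bp. These differences within the members were not tested. Among members with GAGA from 250 bp before to 50 bp after the nearest start, a different window, the 3 of highest signal were ph-p, px and CG18549.

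**Figure D5:**
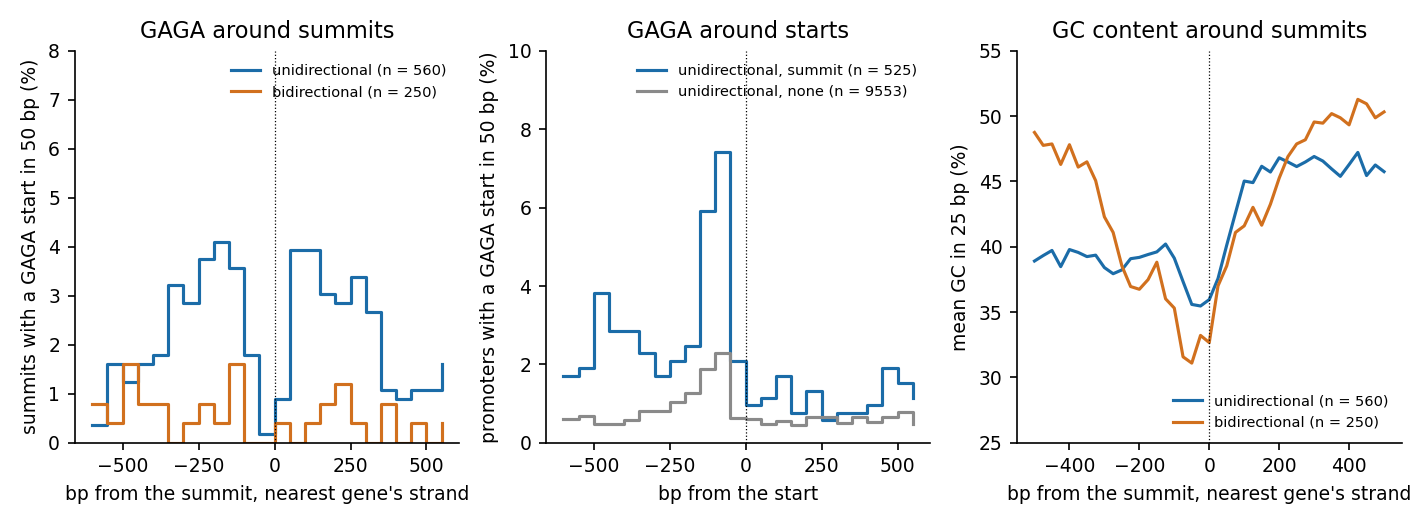
Share of summits (left) and of promoters with starts of a single strand (middle) in which a GAGA element begins in each 50 bp step, and mean GC content in 25 bp (right), against the distance in bp from the summit or the start along the gene's strand. GAGA is near 0 at the summit (0.179% just before it) with about 4% of members on either side, and it is most frequent from 100 to 51 bp before the start.

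The last comparison asked how the promoters of unidirectional summits differ from other promoters with starts of a single strand. Taking 1 start per gene and 250 bp before to 50 bp after it, 525 promoters with a member were set against 9553 with no optimal summit. The starts were chosen differently on the 2 sides. With a member it was the start nearest the summit, first or later. Without, it was the most upstream start, and only genes with every start free of opposite starts within 500 bp were kept. The part of this in the differences between these promoters was not tested. GA-rich 6-mers led the difference: GAGAGA was in 28.4% of the former and 13.4% of the latter (odds ratio 2.56, Fisher's exact test, adjusted p = 8.25e-15), AGAGAG in 30.3% and 15.2% (adjusted Fisher p = 2.52e-14), and GCGAGA in 22.7% and 10.3% (adjusted Fisher p = 1.37e-12). Behind them came AGAGCG with an odds ratio of 2.26, ACAGTG with one of 2.27 and GAGAGC with one of 1.98. In all, 131 6-mers were more frequent with a summit (6.30%) and 66 less frequent (3.17%). These words overlap each other, and mean GC content differed as well, at 41.4% and 39.7%. With starts within 250 bp in place of 500 bp the GAGAGA odds ratio fell to 1.70 (adjusted Fisher p = 0.00373), and on 3L and 3R alone that of AGAGCG was 1.68 and did not pass (adjusted Fisher p = 0.117).

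By motif, a reading added after seeing the data, GAGA was in 17.3% of promoters with a member and 6.42% of those without (odds ratio 3.06, Fisher's exact test, adjusted p = 1.97e-15). The E-box CAGCTG (20.6% and 14.6%), Motif 7 (15.8% and 11.6%) and the CA repeat (7.62% and 4.54%) were also more frequent, which makes 4 motifs (28.6%), and TATAAA was less frequent (39.0% and 45.4%; 1 motif, 7.14%). A TATAAA in the place of a TATA box, from 40 to 20 bp before the start, was in 3.24% (1.90 to 5.13) of promoters with a member and 9.53% (8.94 to 10.1) of those without. The DRE was in 6.10% and 6.24%, with an odds ratio of 0.976 (Fisher's exact test, adjusted p = 1). GAGA was most frequent from 100 to 51 bp before the start in both sets, in 7.43% and 2.28% of promoters. The promoters also differed in their genes. The genes with a member had a median span of 5746 bp and 320 of 525 had more than 1 start. The others had 2072 bp, and 23.1% of them had more than 1 start. Each added start gives a gene more sequence in which a summit can fall. The condition on every start was set only for the genes without a member, and its part in these figures was not tested. The neighbour upstream was on the opposite strand at 39.0% (34.9 to 43.4) and 30.3% (29.4 to 31.3), and the start lay inside another gene at 10.3% and 19.0%.

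Of 13945 protein-coding genes on the 6 arms, 545 had a start within 500 bp of a member, or 3.91%, and 521 had one within 500 bp of a bidirectional summit, or 3.74%, and the gene lists are read beside those shares without a test. Cytoplasmic ribosomal protein genes had 24 of 93 (25.8%) at unidirectional summits and 21 at bidirectional ones. The highest were RpS28b (92.7 in replicate 1 and 77.9 in replicate 2), RpL23A (60.9 and 95.2), RpL17 (74.8 and 54.3) and RpS4 (55.5 and 69.1). Their summits lay close to the start, 23, 89, 44 and 11 bp upstream. None of the 26 summits at these genes had a GAGA element within 300 bp, nor did any of the 6 at translation factors, against 24.1% of all members. Translation factors had 6 of 52 (11.5%), among them eIF6, eEF1gamma with 88.6 and 109.8, and eEF1alpha1 with 44.6 and 79.6. Mitochondrial ribosomal protein genes had 1 of 73 at unidirectional summits, mRpL41, and 9 at bidirectional ones. Proteasome subunits had 0 of 48 and 2, the vacuolar ATPase 0 of 33 and 4, Mediator subunits 1 of 29 (MED4) and 4, and RNA polymerase subunits 1 of 30 (Polr2F) and 3. General transcription factors had 1 of 31, Taf4, aminoacyl-tRNA synthetases 1 of 32, HisRS, and the respiratory chain with ATP synthase 2 of 87, ND-B17 and ND-B22.

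Regulatory and tissue lists are read beside the same 3.91%. Polycomb and trithorax group genes had 5 of 27 (18.5%), namely ph-p, kis, lola, Utx and Trl, and 3 at bidirectional summits. The summit at Trl, the gene of the GAGA factor, lay 154 bp downstream of a start, with 32.2 in replicate 1 and 38.6 in replicate 2. Heat shock genes had 3 of 14: Hsp27 (127.5 and 126.8), Hsp83 (62.6 and 89.3) and Hsp26 (35.7 and 20). GAGA was within 300 bp of 2 of these 3 summits, against 24.1% of all members. It was at 2 of 6 summits of the Polycomb and trithorax list, 2 of 3 of the muscle list and 0 of 2 of the cell cycle list. Muscle and mesoderm genes had 3 of 18: the heart regulator tin (73.0 and 69.6), the titin-like gene sls (68.7 and 23.4) and the FGF receptor gene htl (19.6 and 27.4). The neuronal RNA-binding protein gene elav was 1 of 26 pan-neuronal genes, with 140.8 and 57.7, and numb, a regulator of asymmetric division, 1 of 27 neuroblast and proneural genes, with 87.4 and 57.0. The tracheal regulator rib was 1 of 13 epidermis and trachea genes, with 12.5 and 32.8. None of 28 Hox and segmentation genes had a member. No gene of the heat shock, muscle, neuronal, neuroblast, epidermal or Hox lists had a bidirectional summit, where the share over all genes is 3.74%. With 13 to 28 genes in each list, 0 is near that share, and 0 members at the Hox list is likewise near 3.91%. How many of these genes have an opposite start close by was not counted. Insulator and interband genes had 2 of 17 (JIL-1 and pita) and 4 bidirectional, and cell cycle genes 2 of 41 (CycE and Dp) and 3.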

How the data were processed

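ChIP-seq against GFP was run on 2 biological replicates of dati-eGFP embryos. Peak lists deposited by the authors use build dm6, per the labels. They are ranked lists and thresholded sets for each replicate, the pooled reads (optimal set) and the paired replicates (conservative set). The sources used here do not name the aligner or the peak caller. The signal of each peak is the authors' deposited value, its scale is not stated, and it was used only to rank and describe. The deposited score has an upper limit of 1000 and is the irreproducible discovery rate (IDR) rescaled; the pooled ranked list holds the IDR as a deposited −log10 value. Another deposited column holds the summit's offset from the peak start. Depth is unknown.

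Summits were the start plus the offset, counted from 1. Protein-coding starts came from Ensembl release 115 (BDGP6.54), sequence from the Release 6 assembly. Overlap meant at least 1 bp. Shares carry exact (Clopper-Pearson) 95% intervals. Differences in share had Fisher's exact test (two-sided), and densities had an exact conditional binomial test, adjusted by Benjamini-Hochberg over 5 comparisons, 14 motifs or all 6-mers, with a threshold of 0.05. These tests treat summits as independent and compare places in pooled data, not conditions. SciPy 1.17.1, NumPy 2.4.6, pandas 2.3.3 and Matplotlib 3.10.9 were used under Python 3.11.15, and the 6-mer test was tried on simulated data. The nearest start named each summit. Named genes were the 20 highest and 5 lowest members, up to 4 per gene list, genes with several summits, and those nearest the class limit. Also named were the 5 with the largest replicate difference in rank share, among those of the 200 highest with a place in both ranked lists. Far downstream summits, a further class of that rule, are given for ph-p only. The 19 gene lists left 8 names unmatched. Members and lists were chosen with earlier results of these data known. Alternatives were other peak sets, each replicate's own set, other distances, all annotated transcripts, merged peaks, other windows and arm subsets. 1 promoter sequence is not reported here.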

Additional observations from a re-analysis of the deposited data

How the results depend on the processing

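No paired analysis was possible because both replicates belong to 1 group and no groups were compared. Under the alternatives planned 129 values were computed, of which 102 kept their direction and their side of the threshold or, for counts, stayed within 1.5 times. Both numbers rest in large part on the 6-mers of lowest p between promoters with and without a summit, each tried again under 8 alternatives. Those 6-mers kept their direction and side of the threshold under 7 or 8 of them. The words were picked because they passed in these data and some overlap, so their values are no independent check of the main result. The density ratio passed in the same direction under 10 alternatives, 1 of them added after seeing the data, from 0.199 to 0.391. The number of unidirectional summits was 290 among the optimal peaks above the median signal (the upper part below), and 256 and 360 in the sets of replicates 2 and 1. In that upper part the odds ratios for the conservative share, both own sets and signal above the median were 0.704, 0.673 and 0.957, and without replicate 1 or 2 they ran from 0.544 to 0.753, from 0.514 to 0.861 and from 0.659 to 0.953. The upstream share had an odds ratio of 0.704 and passed with starts within 1000 bp, and of 1.29 in the upper part, 1.21 without replicate 1 and 1.05 without replicate 2. The 6-mers called between the classes numbered 2 without replicate 2, 2 with starts within 250 bp, 2 in windows of 100 bp to each side, and 45 both in the 100 bp upstream of the start and in windows of 300 bp to each side; the motifs called numbered 4, 5 and 8 in those 3 windows. The 6-mers called between promoters with and without a summit numbered 78 in the upper part, 56 without replicate 1, 102 without replicate 2, 73 with starts within 250 bp, 22 on 3L and 3R and 95 on the other arms, where fewer promoters were compared; by motif 5 were called. GAGA within 300 bp had odds ratios from 6.45 to 10.1 in 5 other sets. Causes of these changes were not tested. Without read counts, depth limits cannot be given.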

Other observations

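The strand of the genes at unidirectional summits was not evenly split, a pattern noticed in these data. Of the 560 members 320 (57.1%, 52.9 to 61.3) had starts of the minus strand, which holds 50.3% of the sequence within 500 bp of starts of a single strand. The minus strand had more members on each of the 5 long arms: 62 against 49 on 2L, 64 against 46 on 2R, 63 against 47 on 3L, 65 against 52 on 3R and 65 against 46 on X. Its share was 56.4% in the conservative set, 56.9% in replicate 1's own set and 53.9% (47.6 to 60.1) in replicate 2's, and 50.9% of the 17332 places of the pooled ranked list. Median signals were 78.8 on the minus and 82.4 on the plus strand, and median positions -141.5 and -135.0 bp.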
